A study of Danio rerio with 12 samples.

Results

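Genes for the mitochondrial ribosome and for the respiratory chain were followed through the maternal-to-zygotic transition (MZT) in wild-type and MZznf598 zebrafish embryos. Members were the Ensembl gene identifiers whose symbol begins with mrpl or mrps (mitochondrial ribosome), or with nduf, sdh followed by a to d, uqcr, cox followed by 4 to 8, or atp5 (respiratory chain). A member also had to exceed a CPM (count scaled to a fixed library total) of 1 in at least 3 of the 12 libraries. Of 183 identifiers with such a symbol, 169 passed, out of 15829 genes tested and 25432 in the tables. The mitochondrial ribosome held 74 members, 47 with mrpl symbols and 27 with mrps symbols. These letters stand for the large and the small subunit, but mrps30 and mrps18a encode proteins of the large subunit, so counts are given by symbol and not by subunit. The respiratory chain held 95. By symbol these were 37 of complex I, 4 of complex II, 8 of complex III, 14 of complex IV and 20 of ATP synthase (complex V). The other members were 8 assembly factors of complex I and 4 of complex II. The other 14 identifiers had at most 9 counts in any library and are not described by their values. Among them was the identifier named ndufs1, a core complex I gene, with 0 to 3 counts. Whether reads of this gene were counted under another identifier was not tested. Of the 169 members, 165 passed the filter with libraries of both genotypes and both stages. The other 4 passed only through the group in which they are high, namely mrpl10 (1 hpf), cox4i1l (6 hpf) and ndufa9b and sdhaf2 (wild type). Their differences between those groups were thus favoured by the filter and are given as a description.

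Mitochondria carry their own small genome, which encodes a few core proteins of the respiratory chain. These are made inside the organelle by mitochondrial ribosomes, whose proteins are all encoded in the nucleus, made in the cytosol and imported. Complexes I to IV pass electrons from nutrients to oxygen and pump protons across the inner membrane, and ATP synthase uses the returning protons to make ATP. An egg is supplied with mitochondria and with maternal mRNAs for such proteins, and the embryo later replaces those mRNAs with its own.

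Whole embryos of 2 genotypes were used, AB strain wild type and MZznf598. The mutants have no functional maternal or zygotic Znf598 because of a small frameshifting deletion in the first exon of its gene. The protein, a ubiquitin ligase, marks cytosolic ribosomes that have collided. RNA from pooled embryos was sequenced at 1 h post fertilization (hpf), before the MZT, and at 6 hpf, after it, with 3 libraries per genotype and stage. The labels do not say whether the libraries came from separate clutches, so p-values measure the spread between these libraries, which may be partly technical.

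Libraries held 7144704 to 12162660 counts. Levels are given as CPM after trimmed-mean (TMM) scaling of library sizes, so they are shares of the RNA sequenced and not amounts per embryo. The mRNA of znf598 was 128 to 142 CPM in wild type and 3.45 to 3.7 CPM in MZznf598 at 1 hpf, and 62.6 to 111 against 8.13 to 10.5 CPM at 6 hpf. All 11 listed genes transcribed by the gastrula rose from 1 to 6 hpf in wild type and all 7 listed maternal genes fell. At 6 hpf none of either list was called between genotypes, nor was any of 14 tested markers of the enveloping layer, the yolk syncytial layer and germ cells. At 1 hpf 1 of the 7 maternal genes was called lower in MZznf598 (2.23% of all genes were), and no gene of the other lists was called. The third wild-type library stood apart at both stages. At 1 hpf its counts differed from those of the other wild-type libraries by a chi-square per degree of freedom of 19.8 and 19.9, against 5.15 between the first and the second, and at 6 hpf by 18.8 and 13.7 against 3.58. Among MZznf598 libraries of 1 stage this value ranged from 2.59 to 5.2. All 13 mitochondrially encoded protein genes (mt-) were listed at 0 in every library, so the chain is described by its nuclear genes alone.

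mRNAs for the mitochondrial ribosome took a smaller share of the RNA at 6 hpf than at 1 hpf. Summed over the 74 genes, wild type had 2052, 1943 and 2174 CPM at 1 hpf and 1401, 1367 and 1304 CPM at 6 hpf. Every 6 hpf library lay below every 1 hpf library. The mean went from 2056 ± 116 to 1357 ± 49.2 CPM (SD, n = 3). The 95 respiratory chain genes summed to 4273, 4172 and 5135 CPM at 1 hpf and 3609, 3645 and 3593 CPM at 6 hpf. These groups did not overlap either, and the highest value was that of the third wild-type library at 1 hpf. The mean went from 4527 ± 529 to 3616 ± 26.6 CPM (SD, n = 3). Since these are shares, a loss of these mRNAs and a gain of other RNA cannot be told apart. In whole embryos, neither can fewer cells of a type and less RNA per cell.

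**Figure D1:**
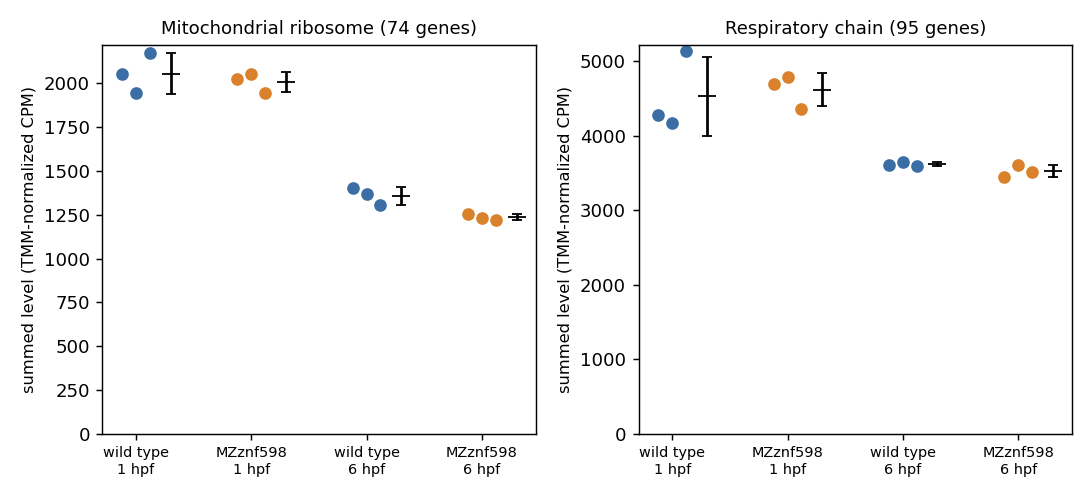
Summed TMM-normalized CPM of the mitochondrial ribosome genes (left) and respiratory chain genes (right) in each library, by genotype and stage. Points are libraries (blue wild type, orange MZznf598), and the black bars are mean ± SD over 3 libraries. The 6 hpf libraries lie below the 1 hpf libraries in both panels, and at 6 hpf the ribosome sums of MZznf598 (1221 to 1257 CPM) lie below those of wild type (1304 to 1401 CPM).

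Genes were called at an adjusted p below 0.01 in edgeR's quasi-likelihood test, with Benjamini-Hochberg adjustment over all 15829 genes. In wild type, 36.5% of all genes tested were called higher and 33.9% called lower at 6 hpf. Among members, 23 of 169 (13.6%) were higher and 79 (46.7%) lower. The mitochondrial ribosome had 7 genes higher and 42 lower of 74, with a median log2 fold change of -0.67. The respiratory chain had 16 higher and 37 lower of 95, with a median of -0.35. These counts include mrpl10 (lower) and cox4i1l (higher), which passed the filter through libraries of 1 stage alone. The median of all genes tested was -0.02. Scaling by library totals alone moved that median to -0.55 and the share of called genes that were higher from 51.9% to 36.7%. The ribosome then had 4 genes higher and 54 lower and the chain 7 higher and 59 lower. Of all genes 27.1% were then called higher and 46.8% lower. Such a change of scaling moves all genes by about the same amount, so the directions below are relative to TMM scaling. Relative to all genes, the medians were -0.65 for the ribosome and -0.33 for the chain.

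Of the ribosome genes, 24 had a log2 fold change below -1 and 4 above 1 (32.4% and 5.41%, against 28.4% and 29% of all genes). Of the chain genes, 16 were below -1 and 7 above 1 (16.8% and 7.37%). Leaving out the third wild-type library of both stages, a check chosen after the data were seen, gave 9 ribosome genes higher and 40 lower, and 19 chain genes higher and 41 lower. In that fit 36.9% of all genes were called higher and 34.5% lower.

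**Figure D2:**
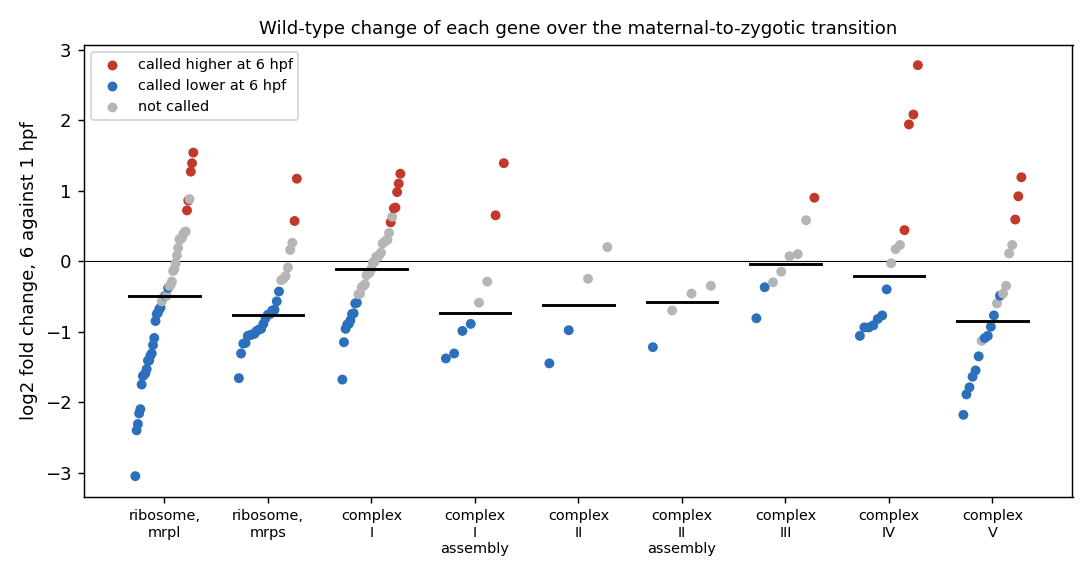
Log2 fold change of every member between 6 and 1 hpf in wild type after TMM scaling, by ribosomal symbol or respiratory complex. Points are genes ordered by value, coloured by the call at an edgeR adjusted p below 0.01, and black lines are medians. The medians of the ribosome genes (-0.5 for mrpl and -0.76 for mrps) and of complex V (-0.85) lie below those of complexes I and III (-0.11 and -0.04).

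Of the 47 mrpl genes, 23 fell, mrpl10 among them, and 5 rose. These were 48.9% and 10.6%, against 33.9% and 36.5% of all genes. The gene with the largest decrease was mrpl48 (ENSDARG00000035167), a protein of this subunit, with 39.3, 37.4 and 42.6 CPM at 1 hpf and 5.4, 4.76 and 4.06 CPM at 6 hpf in wild type. Its log2 fold change was -3.05 (SE 0.15, edgeR adjusted p = 5.11e-10). The stalk protein gene mrpl12 (ENSDARG00000038768), whose product helps recruit translation factors, had 92.3, 87.2 and 97.2 CPM at 1 hpf and 21.2, 16.9 and 14 CPM at 6 hpf. For both genes the stages were far apart and the libraries of 1 stage close together. The change of mrpl12 was -2.4 (SE 0.13, edgeR adjusted p = 2e-09). Also low at 6 hpf was mrpl35, with 15.6 to 17.7 CPM at 1 hpf and 2.91 to 3.72 CPM at 6 hpf (log2 fold change -2.31). The gene mrpl10, whose product anchors the stalk, was sparsely counted, with 39, 14 and 21 counts at 1 hpf and 2, 4 and 2 counts at 6 hpf. It passed the filter through its 1 hpf libraries alone, so its call is no support for a decrease.

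In the opposite direction, mrpl42 (ENSDARG00000079391), a large-subunit gene, went from 4.66, 3.65 and 3.26 to 11.2, 13 and 9.47 CPM. Every 6 hpf library was above every 1 hpf library, and the log2 fold change was 1.54 (SE 0.21, edgeR adjusted p = 1.69e-05). For mrpl4 the ranges were 3.92 to 4.99 and 11.5 to 12.2 CPM (log2 fold change 1.39), and for mrpl32 7.67 to 10.8 and 19.5 to 23.2 CPM (1.27). The other mrpl genes that rose were mrpl24 (0.86) and mrpl2 (0.72). The gene mrpl58, whose product is a rescue factor that releases peptides from stalled mitochondrial ribosomes, was not called, with 1.77, 2.91 and 2.77 CPM at 1 hpf and 0.79, 2.25 and 2.2 CPM at 6 hpf.

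Of the 27 mrps genes, 19 fell and 2 rose (70.4% and 7.41%, against 33.9% and 36.5% of all genes). The greatest decrease was that of mrps30, whose product lies in the large subunit despite the symbol, with 98.2, 95.2 and 121 CPM at 1 hpf and 37, 36.8 and 25.4 CPM at 6 hpf in wild type (log2 fold change -1.66, edgeR adjusted p = 3.18e-07). The log2 fold change was below -1 for 8 of the 27 genes (29.6%), a share near the 28.4% of all genes. The decoding-centre gene mrps12 had 16.8, 16.1 and 14.4 CPM at 1 hpf and 10.7, 11.3 and 9.81 CPM at 6 hpf. Its log2 fold change was -0.57 (SE 0.16, edgeR adjusted p = 0.00418), and the call was lost in 4 of 12 leave-one-out fits, with adjusted p up to 0.0164 without the first wild-type library at 1 hpf. The 2 genes that rose were mrps25 and mrps6. In wild type mrps25 (ENSDARG00000041306) went from 23.1, 21.3 and 18.6 CPM to 44.6, 50.2 and 46.9 CPM, or 1.17 on the log2 scale (SE 0.11, edgeR adjusted p = 4.38e-07).

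Complex I, the NADH dehydrogenase at the entry of the chain, had 10 of 37 genes lower and 6 higher. These were 27% and 16.2%, both under the 33.9% and 36.5% of all genes. The median of -0.11 was near that of all genes. These counts go by symbol, so the 6 include ndufa4, whose protein is associated with complex IV. The accessory subunit gene ndufs4 was counted at low levels, with 7.09, 5.07 and 4.16 CPM at 1 hpf and 1.19, 1.46 and 2.54 CPM at 6 hpf in wild type. It fell by 1.68 on the log2 scale (SE 0.35, edgeR adjusted p = 0.000588). The core flavoprotein gene ndufv1 was not called, and its stages overlapped at 64.9 to 86.2 and 53.3 to 77.2 CPM. Its log2 fold change of -0.11 became 0.03 with relative log expression scaling. The greatest increase was that of ndufs6, an accessory subunit gene, from 14, 12.5 and 10.1 to 24.4, 27.8 and 35 CPM (1.24, edgeR adjusted p = 1.66e-05). The acyl carrier protein of complex I is encoded by 2 members that moved in opposite directions. Levels of ndufab1 rose from 16.1 to 21.7 CPM at 1 hpf to 25 to 39.1 CPM at 6 hpf, and those of ndufab1b fell from 32.8 to 36.2 CPM to 20.8 to 24.2 CPM.

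Of the 8 complex I assembly factors, 4 fell and 2 rose (50% and 25%, against 33.9% and 36.5% of all genes). The increase of ndufaf1 (ENSDARG00000025549), which acts in assembly of the membrane arm, was from 8.86, 7.3 and 4.41 CPM to 17.5, 17.6 and 19.1 CPM. Its log2 fold change was 1.39 (SE 0.2, edgeR adjusted p = 2.75e-05). The other increase was that of ndufaf3 (0.65), and the decreases ran from -0.89 (ndufaf2) to -1.38 (ndufaf6). Among the 4 assembly factors of complex II, sdhaf1 fell (-1.22) and the others were not called.

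In complex II, succinate dehydrogenase, the membrane anchor genes sdhc and sdhd fell, and the catalytic genes sdha (flavoprotein) and sdhb (iron-sulfur protein) were not called. In wild type sdhc had 20.5, 20.9 and 24.3 CPM at 1 hpf and 9.48, 7.28 and 7.1 CPM at 6 hpf (log2 fold change -1.45, edgeR adjusted p = 1.61e-06). For sdhd the values were 45.8, 45.9 and 44.3 CPM and then 26.1, 24.1 and 18.4 CPM (-0.98, edgeR adjusted p = 1.57e-05). Neither anchor gene overlapped between stages. Levels of sdha were 78.3, 76.8 and 108 CPM and then 72.6, 69.1 and 78.6 CPM (-0.25), and those of sdhb 29, 24.3 and 32.9 CPM and then 35.2, 31.5 and 32.5 CPM (0.2). Both overlapped between stages, and the sign of sdhb flipped to -0.32 with library totals alone. The difference in change between anchor and catalytic genes was not tested.

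Complex III, the cytochrome bc1 complex, had 2 of 8 genes lower and 1 higher by symbol. These were 25% and 12.5%, against 33.9% and 36.5% of all genes. The symbols leave out cyc1, a subunit gene of this complex, which rose (log2 fold change 0.44, edgeR adjusted p = 0.000176). It is counted below with other genes of complexes III and IV. The hinge protein gene uqcrh rose from 37.4, 42 and 48.8 to 69.7, 88.2 and 81 CPM in wild type (log2 fold change 0.9, edgeR adjusted p = 1.19e-05). Both members for core protein 2 fell, uqcrc2a from 33 to 45.6 CPM down to 18.8 to 23.2 CPM (-0.81) and uqcrc2 from 133 to 150 CPM down to 98.1 to 116 CPM (-0.37). Core protein 1 (uqcrc1) and the Rieske iron-sulfur protein (uqcrfs1) were not called, at 0.07 and -0.15. The sign of uqcrc1 flipped with library totals alone (-0.45) and without the filter on low counts (-0.02). With library totals alone uqcrc1 was called lower (edgeR adjusted p = 0.00526).

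Complex IV, cytochrome c oxidase, had 7 of 14 genes lower and 4 higher, with a median of -0.22. These were 50% and 28.6%, against 33.9% and 36.5% of all genes. The 4 include cox4i1l, whose call was favoured by the filter. The increases of cox7c and cox8a, small membrane subunits, were among the largest of all members. Levels of cox8a (ENSDARG00000095273) went from 2.69, 4.8 and 3.1 CPM to 15.7, 14 and 15.4 CPM, or 2.08 on the log2 scale (SE 0.22, edgeR adjusted p = 1.01e-06). In the same libraries cox7c (ENSDARG00000104537) had 30.7, 20.6 and 11.9 CPM and then 81, 83.4 and 80.2 CPM, or 1.94 on the log2 scale (SE 0.23, edgeR adjusted p = 3.34e-06). At 1 hpf the third wild-type library was the lowest for cox7c. The rarely counted cox4i1l had 2, 1 and 4 counts at 1 hpf and 6, 6 and 13 counts at 6 hpf. It passed the filter through its 6 hpf libraries alone, so its call is no support for an increase.

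By symbol, the other complex IV genes apart from cox6b2 went down or were not called. The main subunit IV gene cox4i1 was not called, with 63.8 to 70.1 CPM at 1 hpf and 66.1 to 81.7 CPM at 6 hpf (log2 fold change 0.17). With library totals alone its value was -0.37 and it was called lower (edgeR adjusted p = 0.005). The genes for subunit Va, cox5a and cox5aa, both fell (-0.77 and -0.4), and cox5b was not called (-0.03, and 0.1 with relative log expression scaling). Decreases of similar size were seen for cox6a1 (-1.06), cox6c (-0.91), cox7b (-0.82) and both identifiers named cox7a2 (-0.94 each). Levels of cox6b2 rose from 70.3 to 78.4 CPM up to 97.3 to 102 CPM (0.44), which flipped to -0.09 with library totals alone. The supercomplex factor gene cox7a2l was not called (0.23, and -0.3 with library totals alone). The gene ndufa4, named for complex I but encoding a protein associated with complex IV, rose from 58, 58.2 and 61.6 CPM to 104, 97 and 99.3 CPM (0.76), a call that was lost with library totals alone (0.23, adjusted p = 0.0131). Reads that fit several paralogs equally were not counted, so levels of near-identical copies are uncertain.

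ATP synthase had 11 of 20 genes lower and 3 higher (55% and 15%, against 33.9% and 36.5% of all genes). Its median of -0.85 was the lowest of the respiratory complexes. Genes of the head, the c ring, the peripheral stalk and the rest of the membrane part were among those that fell. In the peripheral stalk, which holds the catalytic head still, atp5po (ENSDARG00000001788) had 101, 105 and 116 CPM at 1 hpf and 32.7, 33.4 and 26.9 CPM at 6 hpf in wild type (log2 fold change -1.79, SE 0.1, edgeR adjusted p = 2.23e-09). The stalk genes atp5pd (58.6, 56.8 and 59.6 CPM, then 14, 17.5 and 15.9 CPM) and atp5pb (105, 108 and 126 CPM, then 34.8, 38.4 and 35.5 CPM) fell by 1.89 and 1.64. In each of the 3 genes the stages lay far apart. The fourth stalk gene, atp5pf (coupling factor), went the other way, from 12.1, 11.3 and 14.4 CPM to 27.3, 28.2 and 30.8 CPM (1.19, SE 0.13, edgeR adjusted p = 1.32e-06). The greatest decrease of the enzyme was that of atp5mg (ENSDARG00000011841), a membrane subunit, from 62.8, 61.1 and 60 CPM to 13.4, 13.8 and 13.2 CPM (-2.18, SE 0.11, edgeR adjusted p = 1.05e-09).

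In the head and rotor the members also differed. The catalytic beta subunit gene atp5f1b had 573, 587 and 797 CPM at 1 hpf and 407, 380 and 359 CPM at 6 hpf (log2 fold change -0.77). Its partner in the head, the alpha subunit gene atp5f1a, was not called, with 390, 394 and 654 CPM and then 506, 485 and 559 CPM (0.11, and -0.41 with library totals alone). For atp5f1a the third wild-type library at 1 hpf lay above all others and the other libraries of that stage lay below all of 6 hpf. The central stalk genes atp5f1c (gamma) and atp5f1d (delta) fell by 1.35 and 1.55. The c subunit, which forms the rotating ring, is encoded by 3 members. Levels of atp5mc1 fell from 144, 137 and 202 CPM to 83.2, 82.9 and 86.9 CPM (-0.93), and those of atp5mc3b from 202, 188 and 283 CPM to 113, 108 and 101 CPM (-1.06). In contrast, atp5mc3 rose from 45.4, 43.8 and 51.2 CPM to 73.8, 67 and 70.2 CPM (0.59), a call that was lost with library totals alone (0.06, adjusted p = 0.531). The inhibitor genes atp5if1a and atp5if1b were not called.

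**Figure D3:**
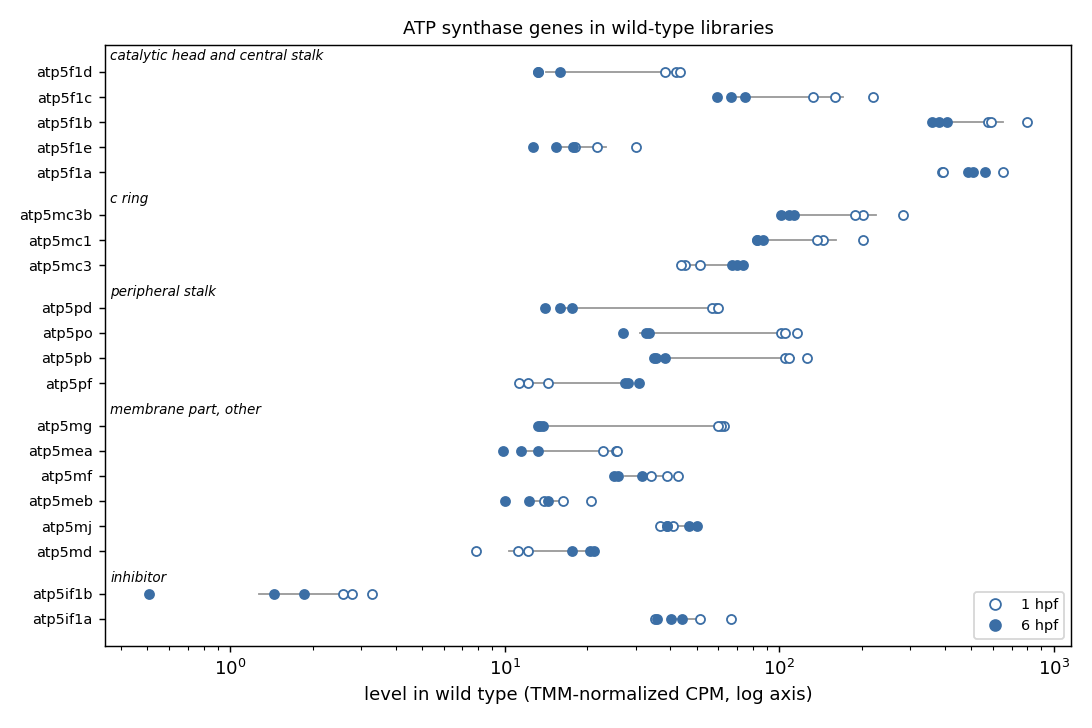
TMM-normalized CPM (log axis) of the 20 ATP synthase genes in the 6 wild-type libraries, grouped by the part of the enzyme. Open circles are 1 hpf libraries, filled circles 6 hpf libraries, and grey lines join the means of the 2 stages. The peripheral stalk genes atp5pd, atp5po and atp5pb lie lower at 6 hpf and atp5pf higher, and the c subunit gene atp5mc3 lies higher while atp5mc1 and atp5mc3b lie lower.

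MZznf598 embryos went through the same transition, and of all genes tested 36.3% were called higher and 33.7% called lower at 6 hpf. The ribosome had 7 genes higher and 41 lower (median log2 fold change -0.74) and the chain 17 higher and 43 lower (median -0.42). Of the ribosome genes called in wild type, 39 of 42 lower and 7 of 7 higher were called the same way in MZznf598. For the chain these were 36 of 37 lower and 16 of 16 higher. The wild-type calls include mrpl10 (lower) and cox4i1l (higher), which passed the filter through a single stage in both genotypes. Their part in the agreement was favoured by the filter. No member was called in opposite directions. The matching shares over all genes were not counted, so this agreement is not set apart from that of other genes. In summed level the ribosome genes went from 2027, 2055 and 1945 to 1257, 1233 and 1221 CPM in MZznf598, and the chain genes from 4695, 4790 and 4361 to 3447, 3602 and 3514 CPM.

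MZznf598 and wild type were then compared at 6 hpf, a stage at which mRNAs subject to Znf598-dependent decay could differ. Of all genes tested, 1.76% were called higher and 1.75% called lower in MZznf598. The ribosome had 1 gene lower, mrps34, and none higher, and the chain had 1 gene higher, atp5f1c, and none lower. DESeq2 called 2 ribosome genes lower, and 2 chain genes higher and 4 lower, where it called 3.8% of all genes higher and 3.22% lower. At an unadjusted p below 0.05, 15 ribosome and 19 chain genes differed, 20.1% of members against 22.2% of all genes. Most members nevertheless had a log2 fold change below 0, namely 123 of 169 (72.8%), against 51.9% of all genes. Their medians were -0.12 for the ribosome and -0.13 for the chain, against -0.01 for all genes. The summed level of the ribosome genes was 1237 ± 18.3 CPM in MZznf598 and 1357 ± 49.2 CPM in wild type at 6 hpf (SD, n = 3), without overlap. The chain genes, at 3521 ± 77.7 and 3616 ± 26.6 CPM, overlapped.

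At 1 hpf, before the zygotic genome is transcribed at scale, 1.6% of all genes were called higher and 2.23% called lower in MZznf598. None of the ribosome genes was called by edgeR, 8 had an unadjusted p below 0.05, and DESeq2 called 1 lower. The chain had 2 genes lower, ndufv3 and ndufa9b, and none higher, and ndufa9b had passed the filter through wild type alone. In the chain 11 genes had an unadjusted p below 0.05. DESeq2 called 1 chain gene higher and 4 lower, against 3.02% higher and 3.64% lower of all genes. Over both subgroups, 11.2% of members had an unadjusted p below 0.05, against 19.1% of all genes. The medians were -0.03 and -0.02 against 0 for all genes, and 94 of 169 members (55.6%) were below 0, against 48.8% of all genes. The summed levels of MZznf598, 1945 to 2055 CPM for the ribosome and 4361 to 4790 CPM for the chain, lay within the wild-type ranges. For the interaction, the genotype difference at 6 hpf minus that at 1 hpf, 0.284% of all genes were called positive and 0.164% negative. The single member among them was mrps34.

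**Figure D4:**
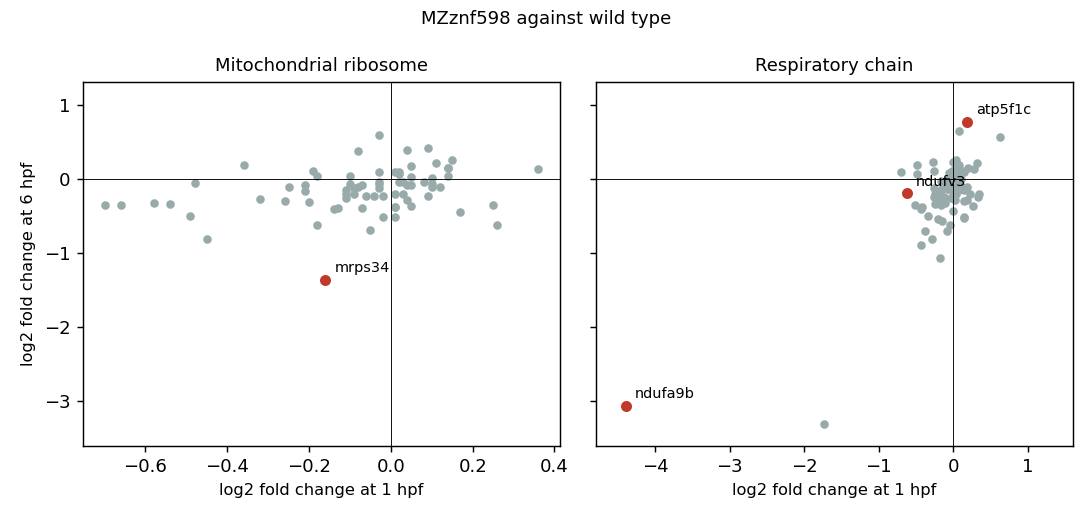
Log2 fold change of MZznf598 against wild type at 1 hpf (x axis) and at 6 hpf (y axis) for the ribosome genes (left) and chain genes (right), whose x axes differ in range. Points are genes, and red, named points are those called at either stage or for the interaction. Most points lie below 0 at 6 hpf, with mrps34 at -1.36 and atp5f1c at 0.77, and ndufa9b is low at both stages. The unnamed low chain gene is sdhaf2, which was not called.

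The gene mrps34 (ENSDARG00000057910) encodes a small-subunit protein found in mitochondrial but not bacterial ribosomes. In wild type it had 102, 96 and 114 CPM at 1 hpf and 52.8, 58.4 and 48 CPM at 6 hpf. In MZznf598 it had 94.1, 97.8 and 88.3 CPM at 1 hpf and 22, 18.7 and 21.5 CPM at 6 hpf. The genotypes overlapped at 1 hpf and were far apart at 6 hpf, where every MZznf598 library was below every wild-type library. MZznf598 against wild type gave a log2 fold change of -1.36 (SE 0.11) at 6 hpf, with an edgeR adjusted p of 1.51e-05, and of -0.16 at 1 hpf (adjusted p = 0.476). The interaction was -1.2 (SE 0.15, edgeR adjusted p = 0.00142). The replicate numbers were taken to pair the stages within a genotype. With that pairing as a block the interaction was again -1.2 and was not called (edgeR adjusted p = 0.0211). The decrease from 1 to 6 hpf was -0.97 in wild type and -2.17 in MZznf598 (edgeR adjusted p = 1.26e-06 and 8.45e-10). The gene lies on the same chromosome as znf598, with 570 protein-coding genes between them. Loss of Znf598 and other differences between the mutant line and the AB strain, linked or not, cannot be told apart here.

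The ATP synthase gamma subunit gene atp5f1c (ENSDARG00000045514) encodes the shaft that turns inside the head. In wild type it had 159, 133 and 220 CPM at 1 hpf and 66.8, 59.4 and 75.1 CPM at 6 hpf. In MZznf598 it had 205, 201 and 179 CPM and then 115, 113 and 115 CPM. It therefore fell in both genotypes, overlapped between them at 1 hpf and was higher in all 3 MZznf598 libraries at 6 hpf. The genotype difference at 6 hpf was 0.77 (SE 0.15, edgeR adjusted p = 0.00796), close to the threshold. The call was kept without the second or the third wild-type library of 1 hpf or the third of 6 hpf, and lost without any 1 of the other 9 libraries (adjusted p up to 0.0413, without the second wild-type library at 6 hpf). The interaction, 0.58, was not called (adjusted p = 0.283).

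The complex I gene ndufv3 (ENSDARG00000090389), for a small protein of the NADH-binding module, had 24.1, 24.6 and 21.1 CPM in wild type and 15.6, 14 and 15.7 CPM in MZznf598 at 1 hpf. The genotypes did not overlap. The log2 fold change was -0.62 (SE 0.12, edgeR adjusted p = 0.00606). At 6 hpf it had 17.8, 20 and 17.1 CPM in wild type and 16, 16.2 and 16.1 CPM in MZznf598 and was not called (adjusted p = 0.457). The 1 hpf call was kept without the third wild-type library of 1 hpf or any 1 wild-type library of 6 hpf, and lost without any 1 of the other 8 libraries (adjusted p up to 0.0381, without the second MZznf598 library at 1 hpf). It was also lost without the filter on low counts (adjusted p = 0.0128) and with the 6 libraries of 1 hpf alone (adjusted p = 0.0238).

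The complex I paralog ndufa9b (ENSDARG00000094312) was rare in wild type, with 33, 40 and 25 counts at 1 hpf and 13, 18 and 7 counts at 6 hpf. MZznf598 libraries held 2, 0 and 2 counts at 1 hpf and 3, 1 and 0 counts at 6 hpf, so the genotypes did not overlap at either stage. Scaled to library size, the level in wild type was 23.6 times that in MZznf598 at 1 hpf (95% interval 8.92 to 88.3) and 8.97 times at 6 hpf (3.23 to 34.6). These are exact intervals on summed counts and cover counting error only. Since the gene passed the filter through wild-type libraries alone, these ratios are a description and its call at 1 hpf is no support for a difference. Its paralog ndufa9 had 53.8 to 64.1 CPM in wild type and 54 to 60 CPM in MZznf598 at 1 hpf, and was not called at either stage (-0.04 and -0.01). The lowest genotype value at 6 hpf, that of the complex II assembly factor gene sdhaf2 (-3.31, SE 1.08), was not called, and its levels were 0.529 to 1.52 CPM in wild type and 0 to 0.146 CPM in MZznf598.

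**Figure D5:**
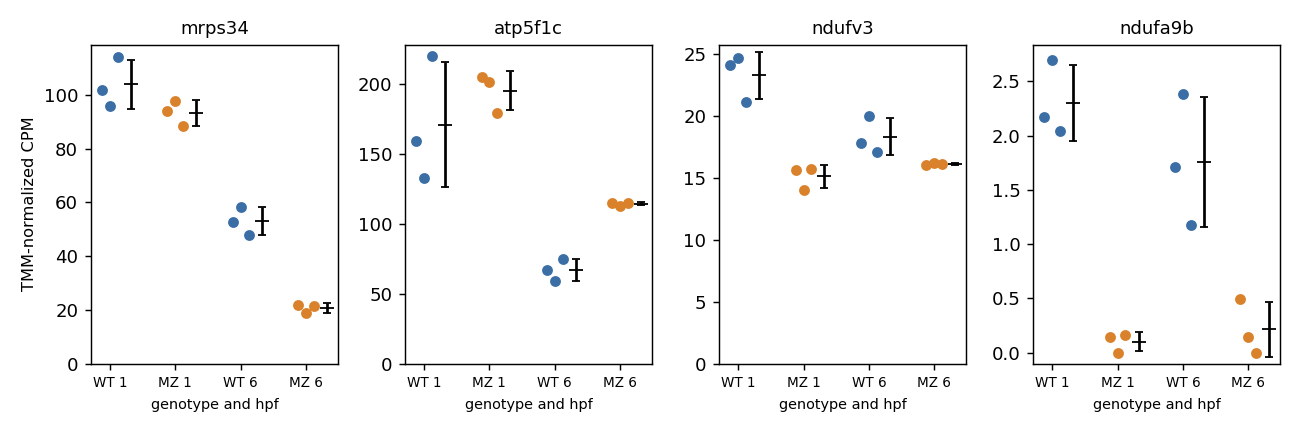
TMM-normalized CPM in each library of the 4 members called between genotypes, by genotype (WT wild type, MZ MZznf598) and stage in hpf. Points are libraries and black bars are mean ± SD over 3 libraries. The genotypes separate at 6 hpf alone for mrps34 and atp5f1c, whereas ndufv3 and ndufa9b separate at both stages. Neither ndufv3 nor ndufa9b was called at 6 hpf. Since ndufa9b passed the filter through wild type alone, its separation was favoured by the filter and is a description.

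The third wild-type libraries bore on the number of genotype calls. Without both of them, a check chosen after the data were seen, 5 ribosome genes and 5 chain genes were called lower at 6 hpf, while calls over all genes rose to 5.66% in each direction. The ribosome genes were mrps34, mrps9, mrpl3, mrpl19 and mrpl30, with log2 fold changes from -0.56 (mrpl19) to -1.43 (mrps34). The chain genes were ndufa9b, ndufs3 (-1.1), ndufb10 (-1), uqcrc1 (-0.6) and the inhibitor gene atp5if1a (-0.79), and atp5f1c was still the single gene called higher. Of these, ndufa9b had passed the filter through wild type alone. At 1 hpf the chain then had 4 genes higher, uqcrfs1, atp5f1a, atp5f1b and atp5f1c. The 5 lower were ndufs3, cox7b, atp5if1a, ndufv3 and ndufa9b, the last of which had passed the filter through wild type alone. The ribosome had mrpl2 higher (0.49), while 6.34% of all genes were called higher and 5.72% lower.

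Other genes of mitochondrial gene expression were counted from lists. Of all genes tested, 33.9% fell and 36.5% rose from 1 to 6 hpf in wild type. The list of ribosome proteins under other names held 6 genes, with the assembly factor gene malsu1 among them. Of these, 3 fell and 1 rose from 1 to 6 hpf in wild type. Of 13 mitochondrial translation factors, 6 fell and 2 rose (median log2 fold change -1.11). The elongation factor gene gfm1 went from 77.5, 80.8 and 97.8 to 32, 26.1 and 29.4 CPM. Of 14 mitochondrial aminoacyl-tRNA synthetases tested, 8 fell and 2 rose (median -1). Of 10 genes for transcription and upkeep of the mitochondrial genome, 4 fell and 4 rose. The mitochondrial RNA polymerase gene polrmt was among those that fell, from 92.9, 94.8 and 87.5 to 24, 20.4 and 21.6 CPM.

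Beyond gene expression, 10 of 18 other genes of complexes III and IV, mostly assembly factors, fell and 4 rose. Of 24 protein import genes 8 fell and 3 rose, and of 16 citric acid cycle genes 4 fell and 6 rose (median 0.07). Over all genes tested the shares were 33.9% and 36.5%. With library totals alone the citric acid cycle list had 9 genes lower and 2 higher, with a median of -0.45. Of all genes 46.8% were then lower and 27.1% higher. Among 6 nuclear regulators of mitochondrial genes, gabpa, which encodes a DNA-binding subunit of an ETS family factor, rose from 17.9, 20.8 and 20.1 to 93.2, 100 and 118 CPM. The coactivator gene ppargc1b fell from 20.7, 12.2 and 6.04 to 3.16, 2.12 and 1.86 CPM. Between genotypes, these 8 lists together, with 107 genes tested, had 1 gene higher and 2 lower at 6 hpf (1.76% and 1.75% of all genes) and 6 lower at 1 hpf (2.23% of all genes). One of the latter was the mitochondrial initiation factor gene mtif2, with 27.5, 19.7 and 18.6 CPM in wild type and 7.76, 6.91 and 7.06 CPM in MZznf598 (log2 fold change -1.6, edgeR adjusted p = 0.00171). At 6 hpf mtif2 was not called (edgeR adjusted p = 0.0278). Another was cox17, called lower at 1 hpf (-1.38, edgeR adjusted p = 0.000477) and also at 6 hpf (-1.71, edgeR adjusted p = 0.00105).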

How the data were processed

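The deposited values are whole-number read counts per Ensembl gene, with each library in its own table. By the methods of the study and the submitters' processing notes, the authors depleted ribosomal RNA, made stranded libraries, sequenced them from a single end, aligned reads to GRCz11 with STAR 2.7.8a, kept reads that mapped once with at most 1 mismatch, and counted them with featureCounts. The annotation release and strand setting are not given in the sources used here.

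Symbols came from a table of gene identifiers, which named 23608 of the 25432 genes. The tests used edgeR 4.0.16 under R 4.3.3. Genes above 1 CPM in at least 3 libraries were kept, scaled by TMM and fitted with 4 group means by quasi-likelihood over all 12 libraries (8 residual degrees of freedom, common biological coefficient of variation 0.154). Tests were 2-sided, with Benjamini-Hochberg adjustment over 15829 genes, and calls were made below 0.01. SEs were obtained as the size of the log2 fold change over the root of its F statistic. A count of 0 allows up to 3 counts, which is 0.197 to 0.507 TMM-normalized CPM by library. This floor covers counting error only, since no molecular identifiers were used. The fit was tested on simulated data.

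The members and lists were chosen with earlier results of these data known. Members are named if they were called between genotypes or for the interaction, if they were the 4 called higher and 4 called lower in each subgroup with the largest wild-type change and no overlap between stages, if they are core subunits fixed by name, or if they have paralogs in cox4 to cox8, atp5mc, ndufa4 or uqcrh. The other members named were picked after their values were seen, as were examples from the related lists. Of the fixed names, uqcrc2b and atp5fa1 are not in the symbol table, which holds uqcrc2 and atp5f1a. The values of 1 member that the rule names are not reported here.

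Libraries of 1 genotype with the same replicate number deviated together at both stages (correlations across genes of 0.133 to 0.209 in 6 pairs). With different numbers the values within a genotype were -0.171 to 0.065, so the numbers were taken to pair the stages within a genotype. Between genotypes the values were -0.092 to 0.071 for the same number, and -0.149 to 0.171 for different numbers at 1 stage. There the numbers were not taken to pair libraries. Alternatives were relative log expression and library-total scaling, no filter on low counts, DESeq2 1.42.0, an adjusted p of 0.05, the 6 libraries of a comparison alone, replicate blocks and leaving out libraries. Promoter and protein sequences were not used here.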

Additional observations from a re-analysis of the deposited data

Results flagged for a closer look

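The genotype difference of mrps34 (ENSDARG00000057910) differed between the stages by an interaction test. The 6 hpf difference minus that at 1 hpf was -1.2 on the log2 scale (SE 0.15, edgeR adjusted p = 0.00142), and all 3 MZznf598 libraries were below all 3 of wild type at 6 hpf. Without any 1 library the value ranged from -1.28 to -1.14 and the call was kept. With the replicate number as a block within genotype the call was lost (adjusted p = 0.0211). The gene shares a chromosome with znf598, and the cause of its difference was not tested.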

How the results depend on the processing

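Between stages, the medians of ribosome and chain stayed negative in both genotypes under every alternative run, and counts of calls stayed within 1.5 times except where given here. From 1 to 6 hpf in wild type, 11 ribosome genes were higher with relative log expression scaling and with DESeq2. Of all genes these called 39.3% and 40% higher. The medians were -0.53 (ribosome) and -0.21 (chain) under both. In MZznf598 these medians were -0.6 and -0.28. With library totals alone, wild type had 4 ribosome genes higher (median -1.2), and 7 chain genes higher and 59 lower (median -0.88). Of all genes 27.1% were higher and 46.8% lower. Under the same scaling MZznf598 had 4 ribosome genes higher (median -1.27), and 8 chain genes higher and 65 lower (median -0.96). There 26.9% of all genes were higher and 46.6% lower. Without the filter on low counts the medians were -0.76 and -0.44 in wild type and -0.85 and -0.53 in MZznf598. Without the third wild-type libraries of both stages they were -0.58 and -0.24 in wild type. Scaling shifts the median of all genes, to 0.12 in wild type with relative log expression and -0.55 with library totals. Among genes named in the report, these changed sign in wild type. With relative log expression and with DESeq2, ndufv1 was 0.03 and cox5b 0.1. With library totals, sdhb was -0.32, uqcrc1 -0.45, cox4i1 -0.37, cox6b2 -0.09, cox7a2l -0.3 and atp5f1a -0.41. Without the filter uqcrc1 was -0.02, and without the third wild-type libraries of both stages ndufv1 was 0.18 and cox5b 0.12. Leaving out 1 library at a time gave -0.22 to 0.02 for ndufv1, -0.1 to 0.08 for cox5b and -0.02 to 0.22 for uqcrc1. Of these genes only cox6b2 was called after TMM scaling. With library totals uqcrc1 and cox4i1 were called lower (edgeR adjusted p = 0.00526 and 0.005), where 46.8% of all genes were lower. The cause of the sign changes was not tested.

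Between genotypes the counts of calls were small and moved with most settings. At 6 hpf, 1 chain gene was lower with relative log expression, without the filter and with a replicate block. DESeq2 gave 2 ribosome genes lower, and 2 chain genes higher and 4 lower. An adjusted p of 0.05 gave 5 ribosome genes lower, and 3 chain genes higher and 6 lower, against 4.29% higher and 4.09% lower of all genes. Without the third wild-type libraries of both stages 5 genes of each subgroup were lower, against 5.66% of all genes. At 1 hpf, library totals gave 1 chain gene higher, and the fit without a filter and the fit with a replicate block gave 1 higher and 1 lower each. DESeq2 and an adjusted p of 0.05 each gave 1 ribosome gene lower, and 1 chain gene higher and 4 lower (3.55% higher and 4.22% lower of all genes at 0.05). The 6 libraries of 1 hpf alone gave 1 chain gene lower. Without the third wild-type libraries of both stages 1 ribosome gene was higher, and 4 chain genes were higher and 5 lower. Of all genes 6.34% were then higher and 5.72% lower. For the interaction no ribosome gene was called with the block within genotype. Without the third wild-type libraries of both stages 2 ribosome and 2 chain genes were lower, against 1.82% of all genes. Leaving out 1 library at a time gave 1 to 3 ribosome genes lower, and 0 to 1 chain genes higher and 0 to 2 lower, at 6 hpf. The highest counts lower came without the third wild-type library at 6 hpf. That fit called 2.94% of all genes lower, against 1.75% with all libraries. Over these fits 0.788% to 2.56% of all genes were higher and 0.775% to 2.94% lower. At 1 hpf leaving out 1 library gave 0 to 1 chain genes higher and 1 to 2 lower, against 0.921% to 2.59% higher and 1.06% to 3.06% lower of all genes. The replicate block within genotype paired the stages, and beside the interaction of mrps34 it moved no count of calls by over 1.5 times. The alternatives for promoter motifs were not run.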
